A study of Homo sapiens with 6 samples.

Results

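The genes described here encode plakoglobin (JUP), the desmosomal proteins desmoplakin (DSP), desmoglein 2 (DSG2), plakophilin 2 (PKP2) and plakophilin 3 (PKP3), plakophilin 4 (PKP4), and the catenins beta-catenin (CTNNB1), alpha-catenin (CTNNA1) and p120-catenin (CTNND1). These 9 genes were taken by name from the 21619 genes counted, and all of them passed the filter on low counts. They were followed in MDA-MB-231 cells, a mesenchymal-like line from a human breast cancer of the triple-negative kind, engineered to carry ribosomal protein L10a tagged with EGFP. Polyadenylated RNA was sequenced from tagged ribosomes recovered with antibody to GFP, a method called translating ribosome affinity purification (TRAP). All cultures spent 24 h in 0.2% serum. The untreated group then received neither factor. Treatment was for 6 h with CXCL12, a chemokine, and IGF1, a growth factor: CXCL12 at 30 ng/mL and IGF1 at 10 ng/mL in the lower dose group, and CXCL12 at 300 ng/mL and IGF1 at 100 ng/mL in the higher dose group. Each of the 3 groups had 2 biological replicates, lettered a and b. Both factors were always given together, so their separate parts cannot be told apart, and the labels do not say whether the tagged line is 1 clone or a pool.

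Desmosomes are spot-like junctions that anchor intermediate filaments to the plasma membrane. Desmosomal cadherins such as desmoglein reach across to the next cell, and inside the cell they bind plakoglobin and plakophilins, which bind desmoplakin, which in turn holds the filaments. In adherens junctions, classical cadherins bind beta-catenin or plakoglobin, which link to alpha-catenin and actin, while p120-catenin steadies the cadherin at the membrane. Plakoglobin and beta-catenin are close relatives built of armadillo repeats: plakoglobin serves both junctions, and beta-catenin is also the coactivator that carries Wnt signals to TCF/LEF factors in the nucleus.

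Each library held 26255079 to 30280322 reads assigned to genes. At that depth 3 reads, the limit that a count of 0 allows, equal 0.0991 to 0.114 CPM (read counts scaled by library size), a limit that covers counting error only. For the levels of genes in CPM, library sizes were also multiplied by TMM scaling factors of 0.997 to 1.003. Replicates of a group differed by more than counting noise, with a chi-square per degree of freedom of 1.52 to 1.98, so each was counted as 1 sample. Markers of the line were mostly where its description places them: VIM (vimentin) stood at 2681 to 3749 CPM and CD44 at 741 to 941 CPM, while the hormone receptor genes ESR1 (0 to 0.140 CPM) and PGR (0 to 0.177 CPM) were at or near 0. SPARC, which was listed as a high marker, stood at only 0.165 to 0.390 CPM, and among genes listed as low, ERBB2 was at 54.3 to 77.3 CPM, EPCAM at 11.3 to 13.6 CPM and CDH1 at 0.0710 to 0.450 CPM. Defining genes of other cell types were low, with PTPRC at 0.142 to 0.533 CPM, CD3E at 0 in every library, ALB at 0 to 0.0761 CPM, PECAM1 at 1.14 to 1.94 CPM and COL1A1 at 5.95 to 7.20 CPM. Total RNA was not analysed here, so a changed amount of an mRNA in the cell and a changed hold of ribosomes on it cannot be told apart, and neither can fewer expressing cells and less RNA per cell.

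Of the 9 genes, JUP fell furthest at both doses, to 12.8 CPM at the higher dose from 32.5 CPM in untreated cells, a 2.54-fold drop. CTNNB1, CTNNA1, DSP, DSG2, PKP2 and PKP4 fell as well at the higher dose, where DSP fell by 16.4% and CTNNB1 fell by 28.3%. PKP4 moved least of these and fell by 10.9%, a call lost in a fit corrected for transcript length and GC content. PKP3 was the 1 gene of the set that rose at the higher dose, by 9.74%, a call that not every alternative kept. At the lower dose 7 of the 9 fell, 0 rose and 2 did not pass the test, and at the higher dose 7 fell, 1 rose and 1 did not pass (edgeR quasi-likelihood test, adjusted p under 0.05). Such calls were common in these libraries: of the 13548 genes tested, 15.9% were called lower and 16.7% higher at the lower dose, and 28.2% lower and 28.1% higher at the higher dose. The median log2 fold change of the 9 genes was -0.20 at the lower dose and -0.38 at the higher, while the median over all tested genes was -0.00 at each. Both comparisons use the same untreated libraries. The 9 genes were chosen with earlier results of these data known, so their contrast with all tested genes is no independent test. The edgeR test took all 6 libraries together, with 3 residual degrees of freedom for each gene. It also borrows the spread from all other genes, so its p-values rest on more than those 3 degrees of freedom. They rest as well on a small spread between replicates (a biological coefficient of variation of 1.79%). If the replicates do not come from separate cultures, the p-values measure technical spread alone.

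**Figure D1:**
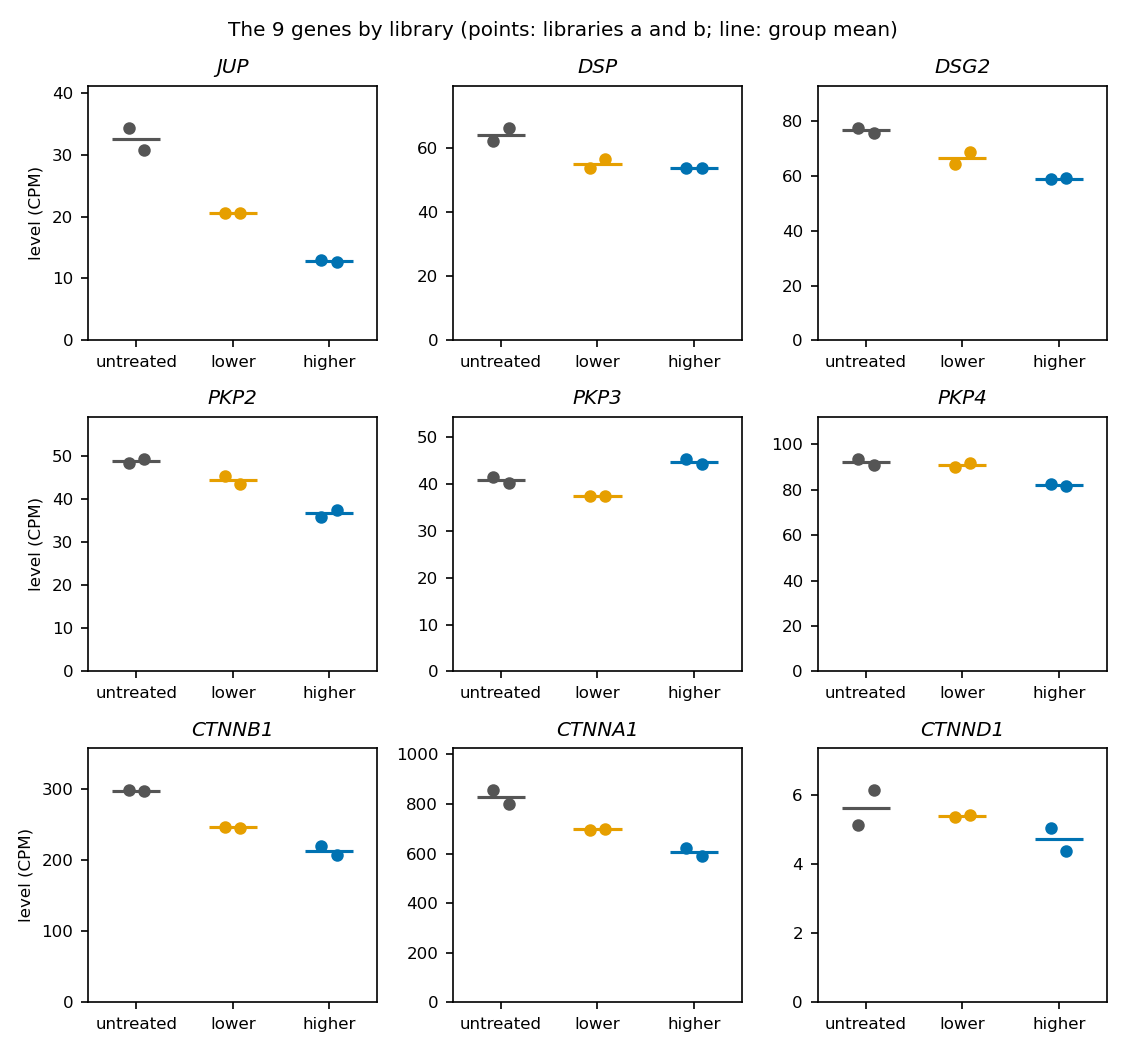
Level of each of the 9 genes in CPM (vertical axes, from 0) in the untreated, lower dose and higher dose libraries; points are the libraries a and b, lines the group means. JUP steps down at each dose with no overlap between groups, whereas PKP3 is lowest in the lower dose libraries and highest in the higher dose libraries.

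JUP, the plakoglobin gene, had 900 and 932 reads in the untreated libraries a and b, 596 and 594 at the lower dose, and 364 and 359 at the higher dose. As levels these were 34.2 and 30.7 CPM, then 20.6 and 20.5 CPM, then 12.9 and 12.6 CPM. Every treated library lay below both untreated ones, and the groups did not overlap. How many of all tested genes show groups without overlap was not counted. Here and for the other genes, such statements describe the libraries only. The log2 fold change was -0.65 ± 0.06 (SE, adjusted p = 7.54e-13) at the lower dose, where JUP fell by 36.4%. At the higher dose the log2 fold change was -1.34 ± 0.07 (SE, 95% interval -1.48 to -1.21, adjusted p = 2.94e-24), where JUP fell by 60.6%. From the lower to the higher dose JUP fell by 38.0%, with a log2 fold change of -0.69 ± 0.07 (SE, adjusted p = 3.35e-11). Of all tested genes, 0.694% had a lower log2 fold change than JUP at the lower dose and 0.177%, or 24 genes, at the higher dose. The longest annotated JUP transcript has a GC content of 61.5%, against 42.0% to 47.9% for the other genes of the set apart from PKP3. In a fit corrected for transcript length and GC content, the change of JUP at the higher dose was -1.26.

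The RefSeq promoter table (GRCh38.p14) held windows from 250 bases before to 50 bases after a start for 6 of the 9 genes, 11 windows in all, with no entry for PKP2, PKP3 and CTNND1. The 250 bases before each start of JUP, the gene that moved most, and before the start of CTNNB1, its relative that moved less, are printed 5′ to 3′ on the strand of the gene. They lie at chr17:41786712-41786961 (minus strand, first JUP window), chr17:41785977-41786226 (minus strand, second JUP window) and chr3:41199255-41199504 (plus strand). Capitals mark the E-box CACCTG on either strand, the sequence that SNAI-type repressors recognise.
JUP first start: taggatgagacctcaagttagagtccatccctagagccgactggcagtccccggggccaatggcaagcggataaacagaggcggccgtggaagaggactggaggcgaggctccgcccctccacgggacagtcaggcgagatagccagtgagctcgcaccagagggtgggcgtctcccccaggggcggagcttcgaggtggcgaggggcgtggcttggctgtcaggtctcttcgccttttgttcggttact
JUP second start: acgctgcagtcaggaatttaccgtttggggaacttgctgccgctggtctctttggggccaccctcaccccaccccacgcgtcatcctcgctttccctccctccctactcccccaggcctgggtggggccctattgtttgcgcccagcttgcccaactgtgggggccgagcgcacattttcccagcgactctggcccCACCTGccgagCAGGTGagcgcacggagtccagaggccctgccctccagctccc
CTNNB1 start: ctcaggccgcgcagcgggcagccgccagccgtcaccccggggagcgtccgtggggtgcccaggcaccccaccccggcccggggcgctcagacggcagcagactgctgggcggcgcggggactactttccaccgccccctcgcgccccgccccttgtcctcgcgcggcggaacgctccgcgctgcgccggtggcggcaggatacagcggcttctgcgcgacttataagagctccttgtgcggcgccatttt

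The second JUP window held 2 matches to the E-box, beginning 54 and 43 bases before the start, on opposite strands and not overlapping each other. The first JUP window and the CTNNB1 window held none. DSP and DSG2, which fell less than JUP, also had 2 matches each in their windows, so 3 of the 11 windows carried the E-box, which was found in 20.6% of 35116 RefSeq promoter windows of the same length. The TCF/LEF element (CTTTGAA or CTTTGTT, both strands) occurred in 1 window, of CTNNA1, and in 9.22% of all windows. The FOXO element GTAAACA (both strands) occurred in 0 of the 11 windows and in 3.42% of all. These matches describe letters in the windows only, and no binding was measured.

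CTNNB1, the beta-catenin gene, had 7845 and 9013 reads in the untreated libraries, 7130 and 7107 at the lower dose and 6205 and 5903 at the higher dose. Its levels were 298 and 297 CPM untreated, 247 and 246 CPM at the lower dose, and 220 and 207 CPM at the higher dose, again without overlap between groups. Its log2 fold change was -0.27 ± 0.03 (SE, adjusted p = 6.03e-11) at the lower dose and -0.48 ± 0.03 (SE, adjusted p = 2.06e-20) at the higher dose. The level fell by 17.3% at the lower dose and fell by 28.3% at the higher. From the lower to the higher dose CTNNB1 fell by 13.3%, with an adjusted p of 1.47e-07.

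The comparison of JUP with CTNNB1 asks whether the mRNAs of the 2 related armadillo proteins moved by the same amount, and it can be read within each library, where library size cancels. For every 100 CTNNB1 reads there were 11.5 and 10.3 JUP reads in the untreated libraries a and b. At the lower dose there were 8.36 in each library, and at the higher dose 5.87 and 6.08. The ratio was thus highest in both untreated libraries and lowest in both higher dose libraries, and group means went from 10.9 ± 0.800 (SD, n = 2) to 8.36 ± 0.000770 and 5.97 ± 0.152. As a share of the reads on both genes, JUP made up 10.3% (95% Wilson interval 9.67 to 10.9) and 9.37% (8.81 to 9.96) in untreated cells, and 5.54% (5.01 to 6.12) and 5.73% (5.18 to 6.34) at the higher dose. The intervals of untreated and higher dose libraries did not meet, and they cover counting error only.

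With the CTNNB1 count of each library as the offset of the edgeR fit, so that every gene was tested as a ratio to CTNNB1, JUP lost ground at each step. The log2 ratio changed by -0.38 ± 0.07 (SE, adjusted p = 3.34e-07) at the lower dose. With the higher dose it changed by -0.87 ± 0.08 (SE, 95% interval -1.02 to -0.71, adjusted p = 5.43e-28), and between the doses by -0.48 ± 0.08 (SE, adjusted p = 3.43e-08). Because CTNNB1 itself fell, most genes gained on it: 0.583% of tested genes were called lower and 65.9% higher as a ratio to CTNNB1 at the lower dose, 2.28% and 77.7% at the higher dose, and 2.56% and 52.7% between the doses. All of these ratios share the counting error of CTNNB1, and any replicate error of its count as well. The fit pools the spread over genes as if their errors were separate. For every ratio to CTNNB1, its p-values can therefore be too small and its intervals too narrow. An exact permutation test of the per-library log2 ratio (two-sided) gave p = 0.333 for each comparison, the smallest p that 2 libraries against 2 allow.

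Of the 8 other genes of the set, JUP was the 1 whose ratio to CTNNB1 fell, at either dose, while 3 rose and 4 did not pass. Of all tested genes, 65.9% were called higher as a ratio to CTNNB1 at the lower dose and 77.7% at the higher. The median log2 ratio change over all tested genes was 0.27 at the lower dose and 0.48 at the higher. CTNNA1, whose protein binds both beta-catenin and plakoglobin, kept close to CTNNB1, with 286, 269, 281, 285, 282 and 285 reads per 100 CTNNB1 reads in the untreated, lower dose and higher dose libraries in turn. Its log2 ratio at the higher dose changed by 0.03 ± 0.05 (SE, 95% interval -0.06 to 0.12, adjusted p = 0.541), so a gain above 0.12 lies outside the interval. PKP3 (0.61 ± 0.06, SE, adjusted p = 1.55e-22), PKP4 (0.31 ± 0.05, SE, adjusted p = 5.14e-09) and DSP (0.22 ± 0.06, SE, adjusted p = 0.00014) rose as ratios to CTNNB1 at the higher dose. In level PKP4 and DSP fell at that dose, by less than CTNNB1 did. The lower dose gave rises for PKP4 (0.25, adjusted p = 4.36e-06), PKP3 (0.15, adjusted p = 0.0283) and PKP2 (0.14, adjusted p = 0.0335), of which the PKP3 and PKP2 calls were lost with DESeq2 (adjusted p = 0.0811 and 0.109) and without any 1 of the 4 libraries compared (0.0695 to 0.231). The ratios of PKP2 (0.07), DSG2 (0.10) and CTNND1 (0.21) did not pass the test at the higher dose. In the fit corrected for length and GC content DSG2 and CTNND1 did, DSG2 at 0.12 (adjusted p = 0.0271) and CTNND1 at 0.27 (adjusted p = 0.0436). Single libraries moved these 3 ratios. Without the higher dose library a, DSG2 (0.15, adjusted p = 0.00818) and PKP2 (0.14, adjusted p = 0.0323) passed, and without library b of that dose DSG2 was at 0.06 (adjusted p = 0.332) and PKP2 at -0.01 (adjusted p = 0.934). CTNND1 passed without the untreated library b (0.36, adjusted p = 0.0466) and was at 0.10 (adjusted p = 0.585) without the untreated library a.

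**Figure D2:**
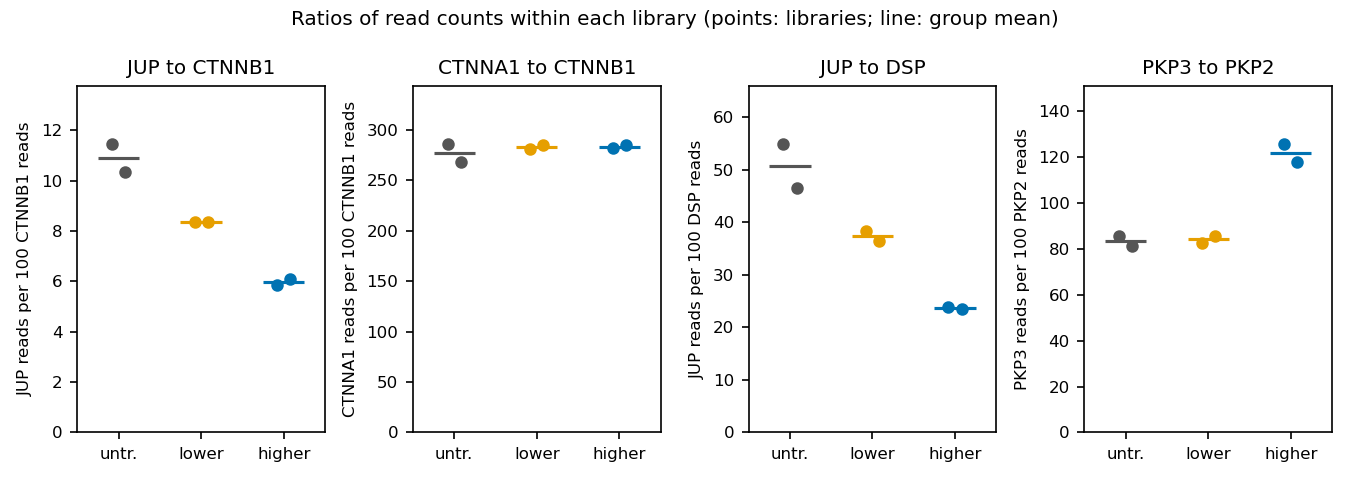
Ratios of read counts within each library, as reads of the first gene per 100 reads of the second (vertical axes, from 0); points are libraries, lines group means. JUP falls against CTNNB1 and DSP at each dose, CTNNA1 stays between 269 and 286 reads per 100 CTNNB1 reads, and PKP3 against PKP2 is highest in the higher dose libraries (126 and 118).

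CTNNA1, the alpha-catenin gene that links cadherin complexes to actin, was the most abundant of the set. It had 22455 and 24208 reads (854 and 798 CPM) untreated, 20057 and 20225 reads (695 and 699 CPM) at the lower dose, and 17499 and 16808 reads (621 and 590 CPM) at the higher dose. The 3 groups did not overlap. It fell by 15.6% at the lower dose (log2 fold change -0.24 ± 0.03, SE, adjusted p = 6.96e-10) and fell by 26.7% at the higher dose (-0.45 ± 0.03, SE, adjusted p = 9.24e-20).

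CTNND1, the p120-catenin gene, had only 135 and 186 reads untreated, 155 and 157 at the lower dose and 142 and 125 at the higher dose, which is 4.39 to 6.13 CPM over all libraries. The untreated libraries spanned the values at the lower dose. The log2 fold change was -0.07 ± 0.12 (SE, 95% interval -0.31 to 0.17, adjusted p = 0.709) at the lower dose and -0.27 ± 0.13 (SE, 95% interval -0.52 to -0.01, adjusted p = 0.0658) at the higher, neither past the threshold. Without the untreated library a the change at the higher dose passed (-0.38, adjusted p = 0.0223), and it did so too without the higher dose library a (-0.37, adjusted p = 0.0486). It was -0.13 (adjusted p = 0.540) without the untreated library b, -0.17 (adjusted p = 0.385) without the higher dose library b, and -0.15 (adjusted p = 0.301) in the fit corrected for length and GC content. The level itself is uncertain: the genes counted include the readthrough gene TMX2-CTNND1, with 0 to 2 reads. In the GENCODE v29 basic annotation its exons share 321 of the 6981 exonic bases of CTNND1 (4.60%). How the counting treated reads in such shared exons is not given in the sources used here.

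Among the desmosomal genes, DSG2, the cadherin desmoglein 2, had 2034 and 2301 reads (77.4 and 75.9 CPM) untreated, 1858 and 1984 reads (64.4 and 68.6 CPM) at the lower dose, and 1659 and 1684 reads (58.9 and 59.1 CPM) at the higher dose. The 3 groups did not overlap. It fell by 13.2% at the lower dose (adjusted p = 3.56e-05) and fell by 23.0% at the higher dose (adjusted p = 7.90e-12), with log2 fold changes of -0.20 ± 0.04 and -0.38 ± 0.04 (SE). Between the doses it fell by 11.3% (adjusted p = 0.000631), a call lost without the lower dose library b (-0.13, adjusted p = 0.0541).

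DSP, the gene of desmoplakin, which ties the plaque to intermediate filaments, had 1637 and 2004 reads (62.3 and 66.1 CPM) untreated. It had 1554 and 1632 reads (53.8 and 56.4 CPM) at the lower dose and 1518 and 1528 reads (53.9 and 53.6 CPM) at the higher dose. Both doses lay below untreated and overlapped each other. DSP fell by 14.2% at the lower dose (log2 fold change -0.22 ± 0.04, SE, adjusted p = 3.06e-05) and fell by 16.4% at the higher (-0.26 ± 0.04, SE, adjusted p = 6.50e-07). The change at the higher dose was -0.12 in the fit corrected for length and GC content (adjusted p = 0.0143). The step between the doses did not pass, at -0.04 with a 95% interval of -0.12 to 0.05.

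Set against its binding partners in the plaque, JUP had 55 and 46.5 reads per 100 DSP reads in untreated cells, 38.4 and 36.4 at the lower dose and 24.0 and 23.5 at the higher dose. Per 100 DSG2 reads it had 44.2 and 40.5, then 32.1 and 29.9, then 21.9 and 21.3. Neither ratio overlapped between groups. DSG2 per 100 DSP reads ranged from 109 to 124 over the 6 libraries, with both higher dose libraries (109 and 110) below all others.

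The plakophilins, armadillo proteins that bind desmoplakin and desmosomal cadherins and gather them into the plaque, parted from each other. PKP2 had 1270 and 1492 reads (48.3 and 49.2 CPM) untreated, 1307 and 1260 (45.3 and 43.6 CPM) at the lower dose, and 1012 and 1066 (35.9 and 37.4 CPM) at the higher dose. The groups did not overlap. It fell by 24.8% at the higher dose (log2 fold change -0.41 ± 0.05, SE, adjusted p = 1.01e-10). At the lower dose it fell by 8.93% (-0.13 ± 0.05, SE, adjusted p = 0.0188), a call lost with DESeq2 (adjusted p = 0.147), in the length and GC fit (0.0592), without the untreated library b (0.0939) and without the lower dose library b (0.165).

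PKP3, a plakophilin found in most epithelial desmosomes, had 1089 and 1216 reads (41.4 and 40.1 CPM) untreated, 1079 and 1081 (37.4 CPM in each) at the lower dose, and 1274 and 1259 (45.2 and 44.2 CPM) at the higher dose. The higher dose libraries stood above all others and the lower dose libraries below. The clearest step was between the doses, a rise by 19.6% (log2 fold change 0.26 ± 0.05, SE, adjusted p = 1.75e-05). Between the doses, 16.4% of all tested genes were called higher and 17.6% lower. Against untreated, the rise at the higher dose (0.13 ± 0.05, SE, adjusted p = 0.0136) was lost with DESeq2 (adjusted p = 0.122), without the untreated library b (0.119) and without the higher dose library a (0.0988). The small fall at the lower dose (-0.12 ± 0.05, SE, adjusted p = 0.0443) was lost with DESeq2 (0.208), in the length and GC fit (-0.06, adjusted p = 0.329), and without the untreated library a (0.201), the lower dose library a (0.137) or the lower dose library b (0.129). PKP3 has the highest GC content of the set, 66.7%, and its rise at the higher dose was 0.17 in the corrected fit.

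PKP4, a more distant relative of the plakophilins and p120-catenin that is found mostly at adherens junctions, had 2452 and 2756 reads (93.3 and 90.9 CPM) untreated, 2592 and 2646 (89.8 and 91.5 CPM) at the lower dose, and 2324 and 2325 (82.5 and 81.6 CPM) at the higher dose. Its untreated and lower dose libraries overlapped, and the change was -0.02 with a 95% interval of -0.09 to 0.05. At the higher dose it fell by 10.9% (-0.17 ± 0.04, SE, adjusted p = 9.12e-05), a call lost in the fit corrected for length and GC content (-0.06, adjusted p = 0.128). For every 100 PKP2 reads there were 85.7 and 81.5 PKP3 reads untreated, 82.6 and 85.8 at the lower dose, and 126 and 118 at the higher dose. PKP3 thus passed PKP2 in read count in both higher dose libraries and in no other. Read counts are not corrected for length. Per kb of the longest annotated transcript, PKP3 already stood above PKP2 in untreated cells (14.5 against 11.3 CPM per kb). Of the reads on the 3 plakophilins, PKP3 took 21.7% to 22.6% in the untreated and lower dose libraries and 27.6% and 27.1% at the higher dose, while PKP2 went from between 25.3% and 27.3% to 22.0% and 22.9%.

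**Figure D3:**
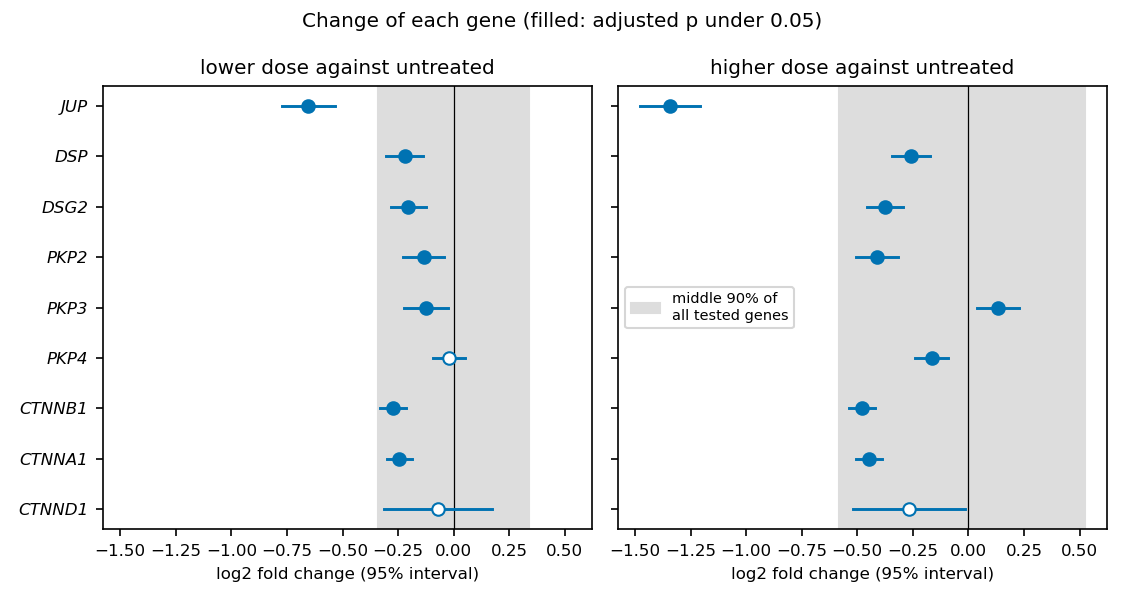
Log2 fold change of each gene with its 95% interval (horizontal axes) at the lower and higher dose against untreated; filled points passed the test and grey bands hold the middle 90% of all tested genes. JUP lies outside the band at both doses (-0.65 and -1.34), and the other 8 genes lie inside it.

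Between the doses, 6 of the 9 genes fell (JUP, DSG2, PKP2, PKP4, CTNNB1 and CTNNA1), 1 rose (PKP3) and 2 did not pass (DSP and CTNND1), with a median log2 fold change of -0.20. Of all tested genes, 17.6% were called lower and 16.4% higher between the doses, with a median of -0.000854. The PKP4 step, which fell by 9.49% (adjusted p = 0.00121), missed the threshold in the fit corrected for length and GC content (adjusted p = 0.0504).

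The order of the genes by level, taken as CPM per kb of the longest annotated transcript, changed at 2 places. In untreated cells the order was CTNNA1 (216 CPM per kb), CTNNB1 (62.9), PKP4 (15.9), PKP3 (14.5), DSG2 (13.1), PKP2 (11.3), JUP (9.29), DSP (6.55) and CTNND1 (0.860). At the higher dose JUP, at 3.65 ± 0.06 CPM per kb (SD, n = 2), stood below DSP at 5.49 ± 0.02, and PKP3 at 15.9 ± 0.25 stood above PKP4 at 14.2 ± 0.10. At the lower dose JUP and DSP were nearly level, at 5.89 ± 0.02 and 5.63 ± 0.19 CPM per kb. In no group did neighbours in the order overlap between libraries, but which transcript of a gene was used was not measured, and another length would move its place.

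The counts for the further lists stand beside the 28.2% of all tested genes called lower and the 28.1% called higher at the higher dose. For the lower dose counts of these lists, the shares of all tested genes were 15.9% lower and 16.7% higher. The lists too were chosen with earlier results of these data known, so these contrasts are no independent test. Of the 11 other desmosome genes, 6 had too few reads to be tested. These were DSG1, DSG3, DSG4, DSC1, DSC3 and PKP1, with 0 to 7 reads in any library. At the higher dose 4 of the 5 tested genes fell and 0 rose, with a median log2 fold change of -0.40. They included PPL, for periplakin, and EVPL, for envoplakin, plakins that join desmosomes to the cornified envelope in stratified epithelia. PPL fell by 1.26 on the log2 scale (adjusted p = 8.70e-06) from 2.13 to 0.883 CPM, on only 24 to 61 reads, and EVPL fell by 0.67 (adjusted p = 5.48e-15) from 35.4 to 22.3 CPM. DSC2, the partner cadherin desmocollin 2, fell by 0.40 (adjusted p = 0.00685) and PERP, a membrane protein of desmosomes, fell by 0.11 (adjusted p = 0.00584). The last 2 calls were lost with DESeq2 (adjusted p = 0.100 and 0.0541) and without the higher dose library a (0.0509 and 0.171). PPL and EVPL also fell at the lower dose, 2 of the 5, and DESeq2 gave PPL no adjusted p there.

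Of the 7 classical cadherins, 4 were tested and 2 fell at the higher dose. CDH11, of mesenchymal cells, fell by 0.37 (adjusted p = 2.78e-14) from 152 to 118 CPM, and CDH4 fell by 0.29 (adjusted p = 9.66e-07) from 52.6 to 43.0 CPM. CDH1, the epithelial E-cadherin, had 2 to 13 reads and was not tested, and CDH2, the N-cadherin gene, had 6 to 15 reads. The catenins described here were thus measured in cells in which the E-cadherin and N-cadherin mRNAs were both near the limit of detection.

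Of 15 other adherens junction and catenin genes, 11 were tested, and at the higher dose 6 fell and 3 rose (median -0.19). Those that fell were led by VCL (vinculin, -0.40, adjusted p = 6.05e-16), TJP1 (the scaffold ZO-1, -0.36, adjusted p = 9.79e-12), MLLT4 (afadin, -0.24, adjusted p = 1.49e-06) and LIMA1 (the actin-binding protein EPLIN, -0.23, adjusted p = 6.03e-08). The genes that rose were PVRL1 (nectin 1, 0.43, adjusted p = 2.59e-07), PVR (the poliovirus receptor, 0.22, adjusted p = 1.76e-08) and CTNNBIP1 (an inhibitor of beta-catenin binding to TCF, 0.16, adjusted p = 0.000245). The lower dose gave 3 falls and 2 rises, 5 calls in all, against 1 with DESeq2 and 3 in the corrected fit, without the untreated library a, and without either lower dose library. Of 11 tight junction genes 10 were tested and 5 fell, with 0 rising (median -0.09). They included F11R (the adhesion molecule JAM-A, -0.61, adjusted p = 2.20e-11), TJP1 and OCLN (occludin, -0.26, adjusted p = 0.0303). The OCLN call was lost with DESeq2 (adjusted p = 0.184), in the corrected fit (0.0876), and without the untreated library a (0.223) or the higher dose library b (0.386). The lower dose gave 3 falls and 0 rises among the 10, against 0 calls with DESeq2 and 1 in the corrected fit or without the lower dose library a.

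In the destruction complex and its ubiquitin ligase, which mark beta-catenin for breakdown, all 11 genes were tested, and at the higher dose 4 rose and 4 fell (median 0.17), where 28.1% of all tested genes were called higher and 28.2% lower. CSNK1A1 (casein kinase 1 alpha, 0.39, adjusted p = 8.32e-16), GSK3B (0.18, adjusted p = 0.000314), AXIN1 (0.18, adjusted p = 0.00652) and GSK3A (0.18, adjusted p = 2.64e-06) rose, the kinases and 1 of the scaffolds of the complex. BTRC (the ligase subunit beta-TrCP, -0.35, adjusted p = 7.37e-06), AXIN2 (-0.33, adjusted p = 0.0230), APC (-0.30, adjusted p = 1.17e-05) and FBXW11 (a second beta-TrCP, -0.20, adjusted p = 2.57e-05) fell. The AXIN1 call was lost with DESeq2 (adjusted p = 0.0867) and without the untreated library b (0.0663). The AXIN2 call, on 120 to 176 reads, was lost with DESeq2 (0.179), in the corrected fit (0.111), and without the untreated library b (0.285) or either higher dose library (0.0552 and 0.119). The lower dose gave 4 rises and 1 fall, 5 calls in all, against 3 with DESeq2 or without the untreated library a.

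All 11 TCF/LEF factors and cofactors were tested, and at the higher dose 4 rose and 1 fell (median 0.05). TLE1, a corepressor of TCF factors, rose from 44.0 to 67.5 CPM (0.61, adjusted p = 3.21e-18), and LEF1, a DNA-binding partner of beta-catenin, rose from 8.81 to 12.1 CPM (0.47, adjusted p = 1.15e-05). TLE3, a further corepressor, rose by 0.17 (adjusted p = 0.00049). PYGO1, a coactivator with 43 to 76 reads, rose by 0.47 (adjusted p = 0.0362), a call lost with DESeq2 (0.225), without either untreated library (0.173 and 0.0564) and without the higher dose library b (0.309). Its relative PYGO2 fell by 0.12 (adjusted p = 0.00423), a call lost in the corrected fit (0.266) and without the higher dose library a (0.116). TLE1 and TLE3 also rose at the lower dose, 2 of the 11, where 16.7% of all tested genes were called higher. The TLE3 call there (0.11, adjusted p = 0.0366) was lost with DESeq2 (0.207), without the untreated library a (0.274) and without either lower dose library (0.0511 and 0.218).

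Of 12 genes known as beta-catenin targets, 9 were tested, and at the higher dose 4 fell and 1 rose (median -0.16). LGR5, a receptor for R-spondins, fell by 1.51 on the log2 scale (adjusted p = 1.36e-08) from 3.86 to 1.34 CPM, on 37 to 118 reads. AXIN2 fell as given for the destruction complex, DKK1, a secreted Wnt inhibitor, fell by 0.20 (adjusted p = 7.54e-09), and CCND1, cyclin D1, fell by 0.16 (adjusted p = 1.16e-06). ZNRF3, a ligase that removes Wnt receptors, rose by 0.46 (adjusted p = 2.51e-06). MYC did not pass the test, at -0.02. The lower dose gave 2 falls, LGR5 (-0.49, adjusted p = 0.0267) and CCND1 (-0.10, adjusted p = 0.00354), and 0 rises. Without the untreated library a neither passed (adjusted p = 0.416 and 0.152). LGR5 was lost too without the lower dose library a (0.678) and CCND1 in the corrected fit (0.0841), and DESeq2 gave LGR5 no adjusted p.

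**Figure D4:**
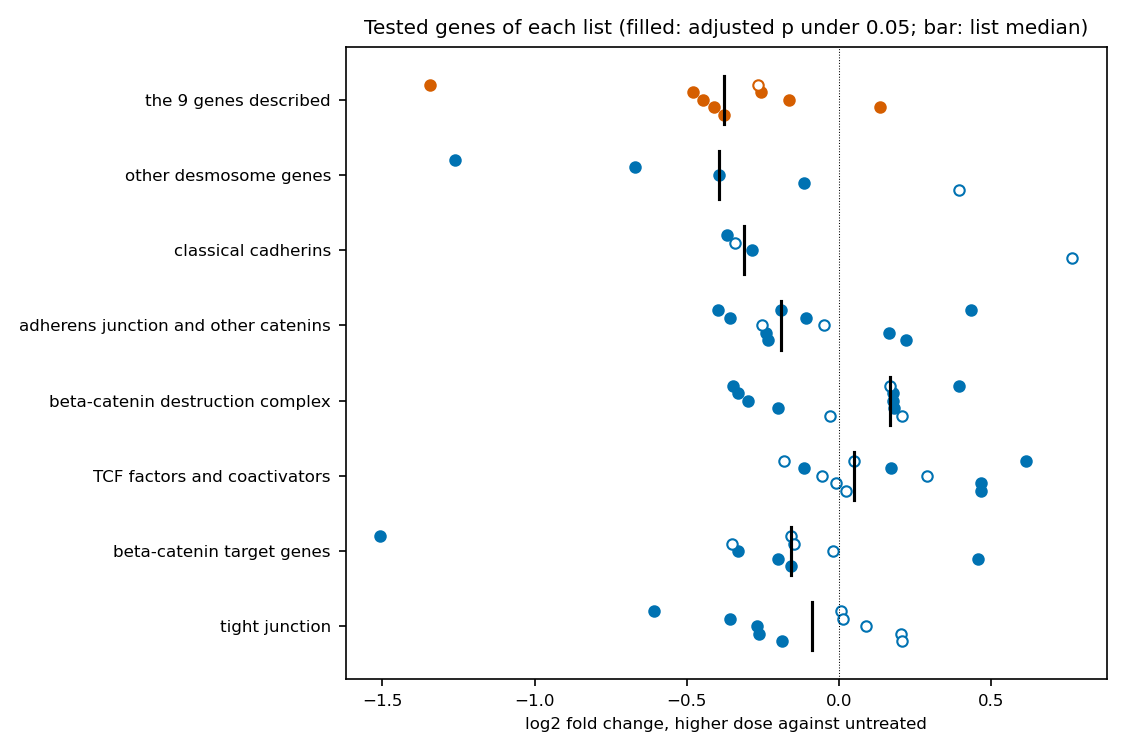
Log2 fold change at the higher dose against untreated (horizontal axis) for the tested genes of each list, 1 point a gene, filled where the test was passed, with a bar at the list median. JUP (-1.34), PPL (-1.26) and LGR5 (-1.51) are the 3 points below -1.

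The genes whose pattern over the 6 libraries was most like that of JUP were taken from 9262 genes with a mean of at least 10 CPM, by the root mean square difference in centred log2 CPM. They were PBXIP1 (0.0646), PDCD4 (0.0799), RCSD1 (0.0889), CALCOCO1 (0.0984) and STAT2 (0.101). PBXIP1, which encodes a partner of PBX homeodomain proteins, went from 50.5 to 30.1 and 18.4 CPM in the untreated, lower dose and higher dose groups. PDCD4, an inhibitor of the translation factor eIF4A, went from 60.0 to 42.8 and 24.5 CPM. RCSD1, which encodes a partner of an actin-capping protein, went from 19.1 to 7.99 CPM at the higher dose, CALCOCO1 from 30.9 to 12.4 CPM, and STAT2, a carrier of interferon signals, from 30.9 to 13.6 CPM. With a minimum of 1 CPM, 4 of the 5 were the same.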

How the data were processed

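The authors deposited raw read counts by gene symbol for the 6 libraries, made with HTSeq after CASAVA 1.8.1 and TopHat 1.4.0 on build hg19, per the submitters' processing notes. No source used here names the annotation, counting mode or use of strand. The 5 HTSeq summary lines (9.40% to 10.2% of reads) were left out.

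Counts were fitted with edgeR 4.0.16 in R 4.3.3 (TMM, filterByExpr by group, robust quasi-likelihood F test, two-sided, 1 fit of 3 groups), with Benjamini-Hochberg adjustment over 13548 genes and a threshold of 0.05. TMM takes most genes as unchanged, so changes are relative to other genes. At the higher dose 7626 of the 13548 tested genes were called, 3821 lower and 3805 higher. Whether the assumption holds here was not tested. The script was tested on simulated data. Lengths and GC content came from the longest GENCODE v29 basic transcript. The 9 genes and the 7 further lists were chosen with earlier results of these data known. In each list the genes passing at the higher dose were named, largest change first, up to 4 in each direction; some genes are not reported here. Alternatives were DESeq2 1.42.0, other scalings and filters, a replicate block, 2-group fits, correction for length and GC content (mgcv 1.9.3), and leaving out each library.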

Additional observations from a re-analysis of the deposited data

How the results depend on the processing

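The JUP fold change kept its direction and its call under every alternative run, ranging from -0.74 to -0.58 at the lower dose and from -1.43 to -1.26 at the higher. Its ratio to CTNNB1 did so too, from -0.94 to -0.79 at the higher dose. Of 297 alternative values for the fold changes of the 9 genes, 280 kept their side of the threshold, 15 lost it, 2 gained it, and 0 called values changed sign. Replicate letters did not pair the libraries: differences between a and b correlated between groups at -0.04, 0.00254 and -0.03. With a replicate block, JUP changed by -1.35 at the higher dose. Over all genes, DESeq2 called 2543 against 4418 with edgeR at the lower dose and 2759 against 4612 between the doses. At the lower dose DESeq2 called 0 tight junction genes against 3, 0 cadherins against 2, and 1 other adherens junction or catenin gene against 5, and at the higher dose 2 other desmosome genes against 4. Low depth limits CTNND1, with 125 to 186 reads. The causes were not tested.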
